A study of Mus musculus with 8 samples.

Results

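The genes described here are 10 ligands and receptors of the immune checkpoint pathways. They were taken by symbol from the deposited count table, and each had 1 row among the 55450 gene IDs. These were the PD-1 ligand genes Cd274 and Pdcd1lg2, the B7 genes Cd80 and Cd86, and the inhibitory receptor gene Havcr2. The others were the galectin gene Lgals9, the VISTA gene Vsir, and 3 genes of innate brakes, Sirpa, Cd47 and Cd200r1. All 10 passed the filter on low counts that left 15975 genes for testing. RNA was sequenced from mouse neutrophils purified by flow cytometry, in 4 groups of 2 libraries. CD71+ and CD71- neutrophils came from brain tumours of SB28 cells, a mouse glioma line, and CD71+ and CD71- neutrophils came from in vitro cultures started from the bone marrow of naive mice. CD71 is the transferrin receptor, and its surface level separated the fractions. The labels give no strain, age, culture time or cytokine, and do not say whether the 2 libraries of a group came from separate animals or cultures.

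Checkpoint ligands bind receptors on T cells and phagocytes and set how strongly those cells respond. PD-L1 (Cd274) and PD-L2 (Pdcd1lg2) engage PD-1, which restrains T-cell signalling, while CD80 and CD86 bind both the activating receptor CD28 and the inhibitory receptor CTLA-4. TIM-3 (Havcr2), galectin-9 (Lgals9) and VISTA (Vsir) act in further inhibitory interactions, and SIRP alpha (Sirpa) on myeloid cells receives the signal of CD47 that restrains phagocytosis. Neutrophils are known to carry several of these proteins in tumours. Counts of RNA do not measure the protein at the surface.

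Total counts ran from 9598959 to 22615813 per library, so 3 counts, the limit that a count of 0 allows, came to between 0.0915 and 0.419 CPM, the usual unit of counts relative to the size of the library. CPM here rest on library sizes scaled by TMM, a method that assumes that most genes do not differ between libraries. Of the 15975 genes tested, 9245 and 10723 were called between sources in CD71+ and CD71- cells, and 6951 between the tumour fractions. The assumption can therefore not be taken as met between the sources. The mature neutrophil markers, a list of 20 genes, summed to between 4747 and 46223 CPM, and all 20 were detected in each library. On TMM scaling, Tfrc, the gene of the sort marker, went against the labels in the tumour. It had 103 and 108 CPM in the libraries labelled CD71+ against 187 and 145 CPM in those labelled CD71-. Its fold change was -0.65 on the log2 scale (SE 0.19, adjusted p = 0.0134), and in culture it was 0.03 (SE 0.19, adjusted p = 0.94). The raw Tfrc counts in the tumour overlapped, at 1072 and 1146 in CD71+ against 1337 and 1045 in CD71- libraries. Between the tumour fractions, total counts and scaling on mature neutrophil genes moved the median log2 fold change of all genes up by 0.56 and 1.02. The order of the fractions in Tfrc thus depends on the scaling. The fractions are therefore called by their sort labels throughout. Mitochondrial genes took 0.202% to 1.04% of the counts in the tumour libraries and 1.45% to 12% in the culture libraries, with the highest share in the second CD71- culture library.

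The main pattern was a split among the checkpoint genes within the tumour. In the libraries labelled CD71+, Cd86 and Havcr2 were higher than in those labelled CD71-, by 4.33-fold and 2.13-fold, while Cd80, Pdcd1lg2, Cd274 and Cd47 were lower. Of all genes tested, 26.2% were called higher and 17.3% lower between these fractions. Among the 6 members named, Cd86 and Havcr2 kept their direction and their call under every scaling of the libraries tried. When the libraries were scaled to total counts, Cd274, Pdcd1lg2 and Cd47 were not called lower, while Cd80 was. With scaling on mature neutrophil genes, none of Cd274, Pdcd1lg2, Cd80 and Cd47 was called lower. Between sources, the tumour neutrophils of both fractions had more Cd274, Cd80, Cd86, Havcr2 and Lgals9 RNA than the cultured ones, on TMM scaling, and 14.2-fold and 14.9-fold less Cd200r1 RNA in CD71+ and CD71- cells.

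**Figure D1:**
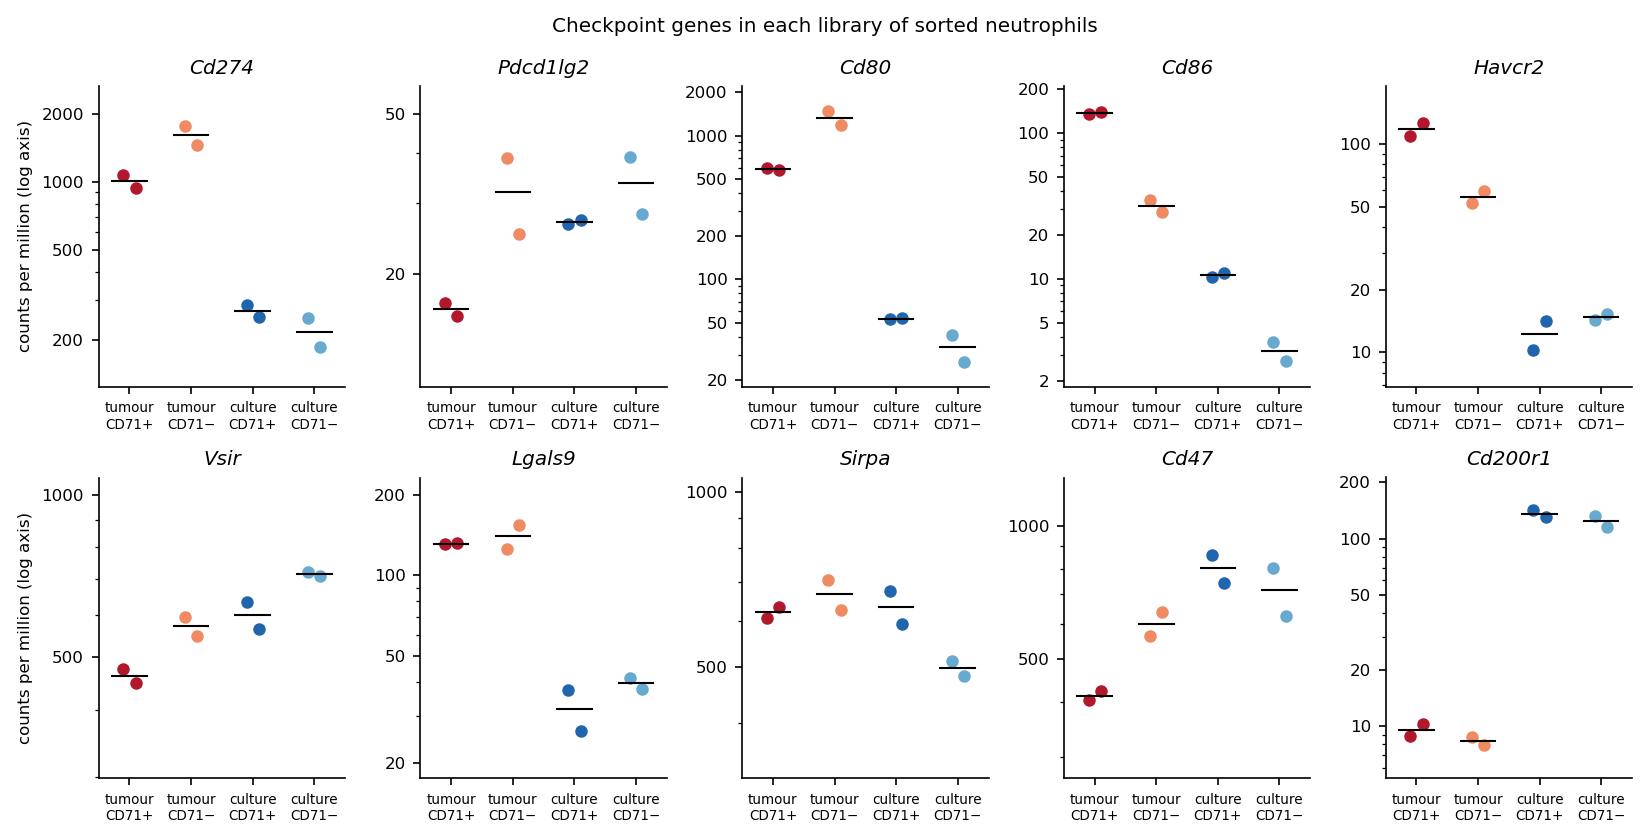
CPM (vertical, log axes that differ between panels) of the 10 checkpoint genes in the 8 libraries, with 2 libraries a group as points and their mean as a line. Cd86 and Havcr2 were highest in the tumour CD71+ libraries, Cd274 and Cd80 in the tumour CD71- libraries, and Cd200r1 stood near 10 CPM or below in the tumour against over 100 CPM in culture.

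Promoter windows are shown for 4 of the members called between the tumour fractions on TMM scaling. Cd86, which had the largest change between these fractions, had no window in the RefSeq table. The windows of Cd47, also called there, are not printed. Cd274 and Pdcd1lg2 are neighbours on chromosome 19, 22823 bases apart. Cd80 and Havcr2 differed in opposite directions between the tumour fractions on TMM scaling. Each window runs from 250 bases before to 50 after the RefSeq start site (build GRCm38.p6, strand +), at chr19:29367188-29367487 for Cd274, chr19:29410669-29410968 for Pdcd1lg2, chr16:38458683-38458982 for Cd80 and chr11:46454681-46454980 for Havcr2. Capitals mark matches to 5 motifs searched on both strands.
Cd274: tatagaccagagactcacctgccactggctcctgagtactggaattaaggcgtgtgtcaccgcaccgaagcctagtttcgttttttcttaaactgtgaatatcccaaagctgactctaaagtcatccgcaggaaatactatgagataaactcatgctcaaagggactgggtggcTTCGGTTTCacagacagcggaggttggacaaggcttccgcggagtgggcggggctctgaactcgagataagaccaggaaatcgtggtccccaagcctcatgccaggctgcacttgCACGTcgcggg
Pdcd1lg2: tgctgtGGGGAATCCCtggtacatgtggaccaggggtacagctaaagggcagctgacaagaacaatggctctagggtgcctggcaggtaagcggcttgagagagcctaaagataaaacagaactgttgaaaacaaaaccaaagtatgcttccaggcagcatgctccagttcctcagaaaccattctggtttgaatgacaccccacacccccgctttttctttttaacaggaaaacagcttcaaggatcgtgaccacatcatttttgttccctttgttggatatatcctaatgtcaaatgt
Cd80: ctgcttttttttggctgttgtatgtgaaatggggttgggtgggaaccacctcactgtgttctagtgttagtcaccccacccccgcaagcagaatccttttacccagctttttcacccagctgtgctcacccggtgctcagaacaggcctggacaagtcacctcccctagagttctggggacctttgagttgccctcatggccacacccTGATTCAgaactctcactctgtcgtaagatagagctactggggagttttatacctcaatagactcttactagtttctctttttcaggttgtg
Havcr2: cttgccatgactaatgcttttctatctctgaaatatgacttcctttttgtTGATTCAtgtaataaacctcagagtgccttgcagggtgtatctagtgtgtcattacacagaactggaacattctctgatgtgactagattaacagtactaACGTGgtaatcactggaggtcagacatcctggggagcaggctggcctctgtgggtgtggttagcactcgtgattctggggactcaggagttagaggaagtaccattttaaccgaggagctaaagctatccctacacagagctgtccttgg
The motifs were ACGTG (the core of the hypoxia response element, searched because the study concerns hypoxia), TTCNNNGAA (the gamma-activated sequence), GAAANNGAA (a pair of interferon regulatory factor half-sites), TGANTCA (AP-1) and the NF-kappa B site. In the windows printed, no match of one motif overlapped a match of another. Positions count from the start site as +1, with no position 0. Cd274 held the hypoxia core at +40 and the interferon regulatory factor pair at -76, both on the reverse strand. Pdcd1lg2 held neither and had an NF-kappa B match at -244. Cd80 had an AP-1 match at -42, and Havcr2 had AP-1 at -200 and the hypoxia core at -100. Of the 7 members with a window in the RefSeq table, 3 held the hypoxia core, 2 the interferon regulatory factor pair, 2 AP-1, 1 the NF-kappa B site and 0 the gamma-activated sequence. Over all 32851 windows of the same length, the shares with a match were 19.6%, 8.56%, 7.81%, 8.46% and 8.30%, in the same order. A match is a run of letters and not a site shown to be bound.

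PD-L1, the ligand that engages PD-1, is encoded by Cd274 (ENSMUSG00000016496.7; mm10 chromosome 19, 29367455 to 29388095, strand +). Cd274 had 1078 and 939 CPM in the tumour CD71+ libraries, against 1772 and 1462 CPM in the tumour CD71- libraries. In culture it had 286 and 255 CPM in CD71+ and 250 and 187 CPM in CD71- libraries. Neither pair of fractions overlapped, and the tumour fractions stood above both culture fractions. In the tumour the log2 fold change of CD71+ over CD71- was -0.68 (SE 0.19, adjusted p = 0.0102), a fall that was -0.12 when libraries were scaled to total counts (adjusted p = 0.649) and turned to 0.34 on the mature neutrophil scaling (adjusted p = 0.153). The call was lost without tumour CD71+ replicate 2 (log2 fold change -0.60, adjusted p = 0.0903), and over all 16 alternatives the adjusted p ran from 2.74e-05 to 0.649. In culture the change was 0.31 (SE 0.19, adjusted p = 0.296). Tumour over culture it was 1.90 (SE 0.19, adjusted p = 1.61e-06) in CD71+ cells, where mature neutrophil scaling gave -0.15, and 2.89 (SE 0.20, adjusted p = 2.47e-08) in CD71- cells. An antisense gene on the opposite strand, AC119228.1, shares 511 bases of its exons, 14.1% of their length, and had 5 to 27 counts in these libraries, against 2062 to 12693 for Cd274.

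Pdcd1lg2 (ENSMUSG00000016498.10; mm10 chromosome 19, 29410919 to 29471161, strand +) encodes PD-L2, the second PD-1 ligand. Its level was 16.9 and 15.7 CPM in the tumour CD71+ libraries, against 38.8 and 25.1 CPM in the tumour CD71- libraries. Culture CD71+ libraries held 26.7 and 27.3 CPM, and culture CD71- libraries 39.0 and 28.1 CPM. In both sources the CD71+ libraries were the lower, with no overlap, but the 2 CD71- libraries of each source stood well apart. The fall passed in the tumour (log2 fold change -0.97, SE 0.25, adjusted p = 0.00642) and not in culture (-0.32, SE 0.23, adjusted p = 0.385). Scaled to total counts, the tumour fractions differed by -0.40 (adjusted p = 0.206), and on the mature neutrophil scaling it was 0.05 (adjusted p over all alternatives 0.000106 to 0.896). Unlike its neighbour, Pdcd1lg2 was not higher in the tumour. In CD71+ cells it was lower there than in culture (-0.72, SE 0.24, adjusted p = 0.0188), a call lost on leaving out either culture CD71+ library (adjusted p = 0.0577 and 0.066) or tumour CD71+ replicate 2 (0.062) and ranging from 3.94e-10 to 0.066 over all alternatives. In CD71- cells the 2 sources overlapped (-0.07, SE 0.24, adjusted p = 0.793).

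B7-1, which binds CD28 and CTLA-4, comes from Cd80 (ENSMUSG00000075122.5; mm10 chromosome 16, 38455561 to 38496335, strand +). Tumour CD71+ libraries held 600 and 574 CPM of Cd80, against 1476 and 1182 CPM in the tumour CD71- libraries. Culture CD71+ libraries had 53.0 and 53.5 CPM, and culture CD71- libraries 41.0 and 26.8 CPM. The fractions did not overlap in either source, and their order was opposite in the 2 sources. The tumour log2 fold change of CD71+ over CD71- was -1.18 (SE 0.20, adjusted p = 0.000512), and it was -0.16 (adjusted p = 0.563) on the mature neutrophil scaling, the highest p over the alternatives, of which the lowest was 5.42e-10. In culture the gene was higher in CD71+ cells at the edge of the threshold (0.65, SE 0.20, adjusted p = 0.0441). That call was lost with DESeq2 size factors (adjusted p = 0.0512), in a model of the 2 culture groups alone (0.0848) and on leaving out any one library other than culture CD71- replicate 1 (0.0522 to 0.183), while the lowest p over the alternatives was 9.31e-07. Leaving out culture CD71- replicate 2 lowered the log2 fold change to 0.38. Cd80 was higher in the tumour than in culture, with log2 fold changes of 3.46 in CD71+ cells (SE 0.22, adjusted p = 1.33e-08) and of 5.29 (SE 0.24, adjusted p = 4.24e-10) in CD71- cells, equal to 11-fold and 39-fold.

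The related ligand B7-2 is encoded by Cd86 (ENSMUSG00000022901.13; mm10 chromosome 16, 36603869 to 36666081, strand -). Cd86 reached 135 and 140 CPM in the tumour CD71+ libraries, against 34.8 and 28.8 CPM in the tumour CD71- libraries. It had 10.2 and 10.9 CPM in culture CD71+ and 3.67 and 2.72 CPM in culture CD71- libraries, where only 62 and 30 counts lay behind the values. No 2 groups overlapped, and CD71+ was the higher fraction in both sources. The log2 fold changes were 2.11 in the tumour (SE 0.19, adjusted p = 4.14e-06) and 1.70 in culture (SE 0.22, adjusted p = 0.000183), and both passed under every alternative tried. Tumour over culture, Cd86 was higher by 3.70 (SE 0.20, adjusted p = 3.3e-09) in CD71+ and by 3.29 (SE 0.22, adjusted p = 1.76e-08) in CD71- cells. Cd80 and Cd86 thus moved in opposite directions between the tumour fractions on TMM scaling. With mature neutrophil scaling, Cd80 was not called there (-0.16, adjusted p = 0.563).

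TIM-3, an inhibitory receptor of T cells and myeloid cells, is encoded by Havcr2 (ENSMUSG00000020399.14; mm10 chromosome 11, 46454935 to 46481255, strand +). Havcr2 had 110 and 127 CPM in the tumour CD71+ libraries, against 52.1 and 59.4 CPM in the tumour CD71- libraries. In culture it stood at 10.2 and 14.2 CPM in CD71+ and at 14.3 and 15.2 CPM in CD71- libraries. The tumour fractions were clearly separate, whereas the culture fractions nearly touched and had the opposite order. The rise in the tumour was 1.09 on the log2 scale (SE 0.19, adjusted p = 0.000695), and it passed under every alternative tried. The culture value was -0.27 (SE 0.20, adjusted p = 0.39). Tumour over culture, the gene was higher by 3.28 in CD71+ cells (SE 0.21, adjusted p = 1.38e-08) and by 1.92 in CD71- cells (SE 0.20, adjusted p = 1.82e-06), where the mature neutrophil scaling gave -0.18.

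Lgals9 (ENSMUSG00000001123.15; mm10 chromosome 11, 78962974 to 78984946, strand -) encodes galectin-9, a ligand of TIM-3. It had 130 and 132 CPM in tumour CD71+ and 126 and 155 CPM in tumour CD71- libraries. Culture CD71+ libraries held 37.4 and 26.3 CPM, against 41.6 and 37.8 CPM in culture CD71- libraries. The sources did not overlap in either fraction. The tumour fractions overlapped, and the culture fractions stood just apart, with CD71+ the lower. The log2 fold change of CD71+ over CD71- was -0.09 in the tumour (SE 0.19, adjusted p = 0.722) and -0.32 in culture (SE 0.19, adjusted p = 0.29). Tumour over culture it was 2.04 in CD71+ cells (SE 0.20, adjusted p = 9.39e-07) and 1.82 in CD71- cells (SE 0.20, adjusted p = 2.27e-06). On the mature neutrophil scaling these became 0.02 and -0.28, neither past the threshold.

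VISTA, an inhibitory molecule abundant on myeloid cells, is the product of Vsir (ENSMUSG00000020101.14; mm10 chromosome 10, 60346851 to 60372684, strand +). Vsir had 477 and 447 CPM in the tumour CD71+ libraries, against 595 and 549 CPM in the tumour CD71- libraries. Culture CD71+ libraries had 634 and 565 CPM, and culture CD71- libraries 719 and 708 CPM. CD71+ was the lower fraction in both sources without overlap, yet none of the 4 comparisons between groups passed. The log2 fold changes were -0.31 in the tumour (SE 0.16, adjusted p = 0.131) and -0.25 in culture (SE 0.16, adjusted p = 0.31). With DESeq2 size factors the tumour value was -0.53 and passed (adjusted p = 0.0128), and with total counts it was 0.25 (adjusted p = 0.229). On mature neutrophil scaling it was 0.72 and passed in the opposite direction (adjusted p = 0.00258). Tumour over culture gave -0.38 in CD71+ (SE 0.16, adjusted p = 0.0552) and -0.32 in CD71- cells (SE 0.16, adjusted p = 0.0881). The CD71+ value passed without culture CD71- replicate 1 (adjusted p = 0.0159) or replicate 2 (0.015), and also with total counts, mature neutrophil scaling, no low-count filter or the compared groups alone, within a range of 7.41e-12 to 0.244 over all alternatives.

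SIRP alpha, the myeloid receptor for CD47, is encoded by Sirpa (ENSMUSG00000037902.18; mm10 chromosome 2, 129592835 to 129632228, strand +). Sirpa had 607 and 633 CPM in tumour CD71+ and 705 and 627 CPM in tumour CD71- libraries. In culture it had 673 and 591 CPM in CD71+ and 512 and 483 CPM in CD71- libraries. On TMM scaling this was the gene with the narrowest range of the 10 over the 8 libraries, taken as the ratio of highest to lowest CPM. Between fractions the log2 fold change was -0.10 in the tumour (SE 0.16, adjusted p = 0.631) and 0.35 in culture (SE 0.16, adjusted p = 0.163). Tumour over culture it was -0.03 in CD71+ cells (SE 0.16, adjusted p = 0.889). In CD71- cells it was 0.42 (SE 0.16, adjusted p = 0.033), a call that total counts turned to -0.51 and mature neutrophil scaling to -1.67. It was lost without any low-count filter (adjusted p = 0.166) and on leaving out culture CD71- replicate 2 (0.0871), either culture CD71+ library (0.0684 and 0.0677) or either tumour CD71+ library (0.0603 and 0.0671), and the lowest p, on mature neutrophil scaling, was 7.29e-09.

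Cd47 (ENSMUSG00000055447.19; mm10 chromosome 16, 49800533 to 49915010, strand +) encodes the broadly expressed ligand of SIRP alpha. Tumour CD71+ libraries had 403 and 423 CPM, against 565 and 637 CPM in tumour CD71- libraries. Culture CD71+ libraries had 858 and 744 CPM, and culture CD71- libraries 805 and 624 CPM. Tumour CD71+ cells stood below each other group, and the culture fractions overlapped. The log2 fold change between tumour fractions was -0.54 (SE 0.18, adjusted p = 0.0238). It was 0.02 with total counts and 0.49 on the mature neutrophil scaling (adjusted p = 0.035). Leaving out either tumour CD71+ library (adjusted p = 0.118 and 0.086) or tumour CD71- replicate 2 (0.0669) ended the call, and the range over all alternatives was 0.000246 to 0.961. In culture the value was 0.17 (SE 0.18, adjusted p = 0.57). Tumour over culture, Cd47 was lower by 0.96 on the log2 scale in CD71+ cells (SE 0.18, adjusted p = 0.000399) under every scaling, while CD71- cells gave -0.25 (SE 0.18, adjusted p = 0.223), which passed without culture CD71- replicate 2 (-0.45, adjusted p = 0.03), with total counts and on mature neutrophil scaling, with an adjusted p of 8.81e-12 to 0.997 over all alternatives.

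The inhibitory receptor for CD200 is encoded by Cd200r1 (ENSMUSG00000022667.18; mm10 chromosome 16, 44765736 to 44794978, strand +). Cd200r1 had 8.85 and 10.3 CPM in tumour CD71+ and 8.80 and 7.90 CPM in tumour CD71- libraries, on 57 to 109 counts. In culture it had 142 and 130 CPM in CD71+ and 133 and 116 CPM in CD71- libraries, on 1278 to 4649 counts. The sources stood far apart and the fractions close together. Tumour over culture, the log2 fold change was -3.83 in CD71+ cells (SE 0.19, adjusted p = 1.54e-09) and -3.90 in CD71- cells (SE 0.20, adjusted p = 1.29e-09), and all alternatives tried gave falls past the threshold. Between fractions it was 0.20 in the tumour (SE 0.20, adjusted p = 0.46) and 0.13 in culture (SE 0.17, adjusted p = 0.65). On TMM scaling it was the only one of the 10 called lower in the tumour in both fractions, whereas total counts and mature neutrophil scaling also called Pdcd1lg2, Vsir, Sirpa and Cd47 lower in both.

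**Figure D2:**
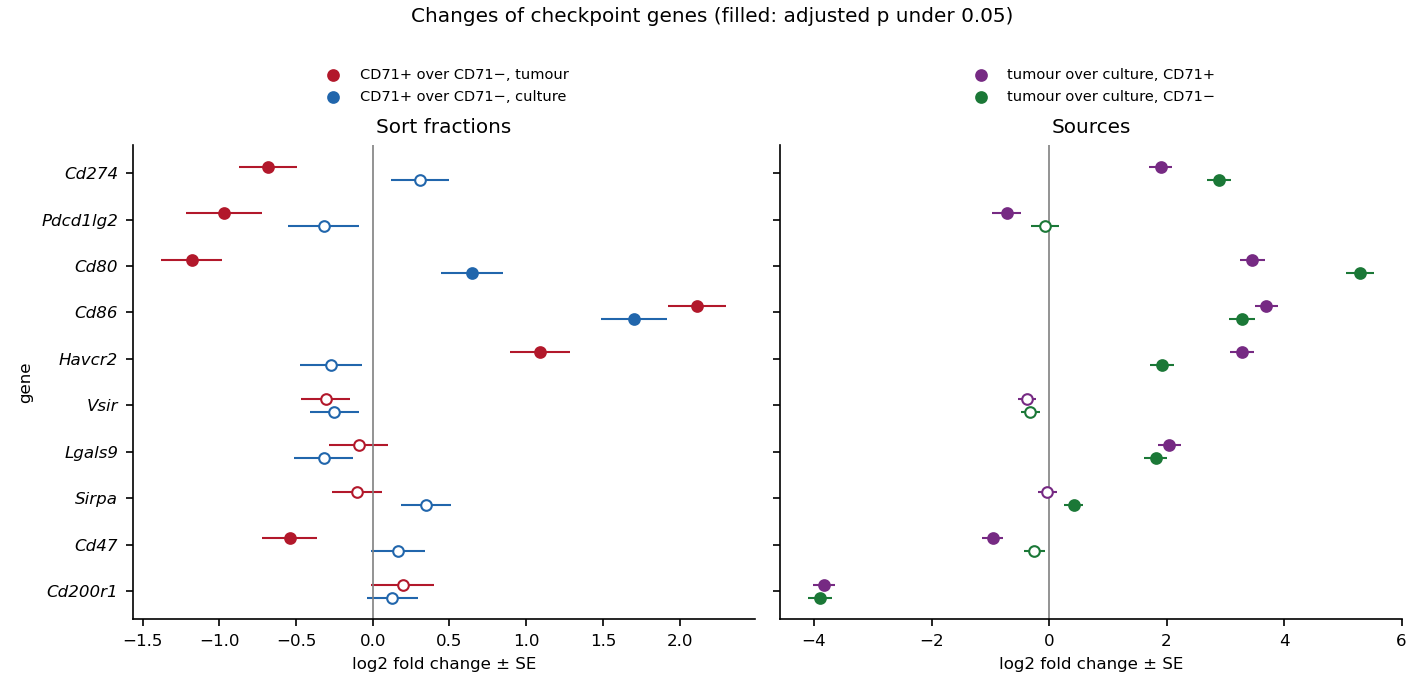
Log2 fold change with its SE (horizontal) of each checkpoint gene, for CD71+ over CD71- on the left and tumour over culture on the right, from 4 groups of 2 libraries. Filled points passed an adjusted p under 0.05. Cd80 lies at -1.18 in the tumour and 0.65 in culture, Havcr2 at 1.09 and -0.27, and Cd86 is the only gene with filled points right of 0 in all 4 comparisons (all on TMM scaling).

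Counted over the 10 genes, 2 were higher and 4 lower in the tumour CD71+ libraries, where 26.2% of all genes tested were called higher and 17.3% lower. In culture 2 were higher and 0 lower, against 7.88% and 8.36% of all genes. Of the 10, 0 were lower in culture at an unadjusted p under 0.05 with edgeR or at an adjusted p under 0.05 with DESeq2's Wald test. Tumour CD71+ over culture CD71+ cells had 5 higher and 3 lower, against 30.3% and 27.6% of all genes. In CD71- cells 6 were higher and 1 lower, against 30.3% and 36.8%. A set of 10 genes is too small for such counts to set it apart from all genes, and no test of the set was made.

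Whether the CD71 difference itself differed between tumour and culture was tested by the interaction. For 3 of the 10 genes it passed, 1 upward and 2 downward, against 10.8% and 4.71% of all genes. Havcr2 gave 1.36 (tumour minus culture log2 difference, SE 0.28, adjusted p = 0.00622), Cd80 -1.82 (SE 0.28, adjusted p = 0.00139) and Cd274 -0.99 (SE 0.27, adjusted p = 0.0237). The Cd80 result passed under every alternative tried. Havcr2 missed the threshold on leaving out the first library of culture CD71+ (adjusted p = 0.0518) or of tumour CD71- (0.067), and the lowest adjusted p over its alternatives was 0.000313. Cd274 missed it with total counts (adjusted p = 0.0717), on leaving out either culture CD71+ library (0.0993 and 0.0522), and without tumour CD71- replicate 1 (0.0558) or the second tumour CD71+ library (0.0903), with a lowest adjusted p of 0.000526 over the alternatives. For Cd47 the value was -0.71 (SE 0.25, adjusted p = 0.0692), and it passed with DESeq2's size factors or Wald test, with no low-count filter and without culture CD71- replicate 1 (-0.93, adjusted p = 0.0103), within a range of 0.00795 to 0.273 over all alternatives. Cd86, which was higher in CD71+ cells of both sources, gave 0.41 (SE 0.29, adjusted p = 0.36), so a difference in the size of its change was not shown.

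Because CPM depend on how libraries are scaled, each change was also set against the median log2 fold change of all genes tested. Between the tumour fractions that median was 0.13 with TMM, and it moved by -0.20 with DESeq2 size factors, by 0.56 with total counts and by 1.02 with scaling on mature neutrophil genes. In culture the moves were -0.03, 0.31 and 0.98. A scaling adds almost the same amount to every gene's log2 fold change, so a member's distance from this median is nearly fixed by construction and tests nothing about how stable a change is. In the tumour Cd86 lay 1.97 to 1.99 above it over the 4 scalings, and Havcr2 0.94 to 0.97 above it. Cd80 lay at -1.33 to -1.31, Pdcd1lg2 at -1.11 to -1.09, Cd274 at -0.83 to -0.81 and Cd47 at -0.69 to -0.66 from it. Tumour over culture the scaling moved the median by 0.07, -0.68 and -2.05 in CD71+ and by 0.25, -0.93 and -2.08 in CD71- cells, in the same order of scalings. The split of all calls moved with it. Between the tumour fractions 60.2% of calls were higher with TMM, against 47.3%, 93.3% and 99.7% with DESeq2 size factors, total counts and mature neutrophil scaling. The same shares were 48.5%, 42.3%, 80.9% and 98.1% in culture, and 69.6%, 52.1%, 87.4% and 75.4% in the interaction. Tumour over culture they were 52.3%, 55.5%, 29.3% and 12% in CD71+ and 45.1%, 52.1%, 25.3% and 11.8% in CD71- cells.

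**Figure D3:**
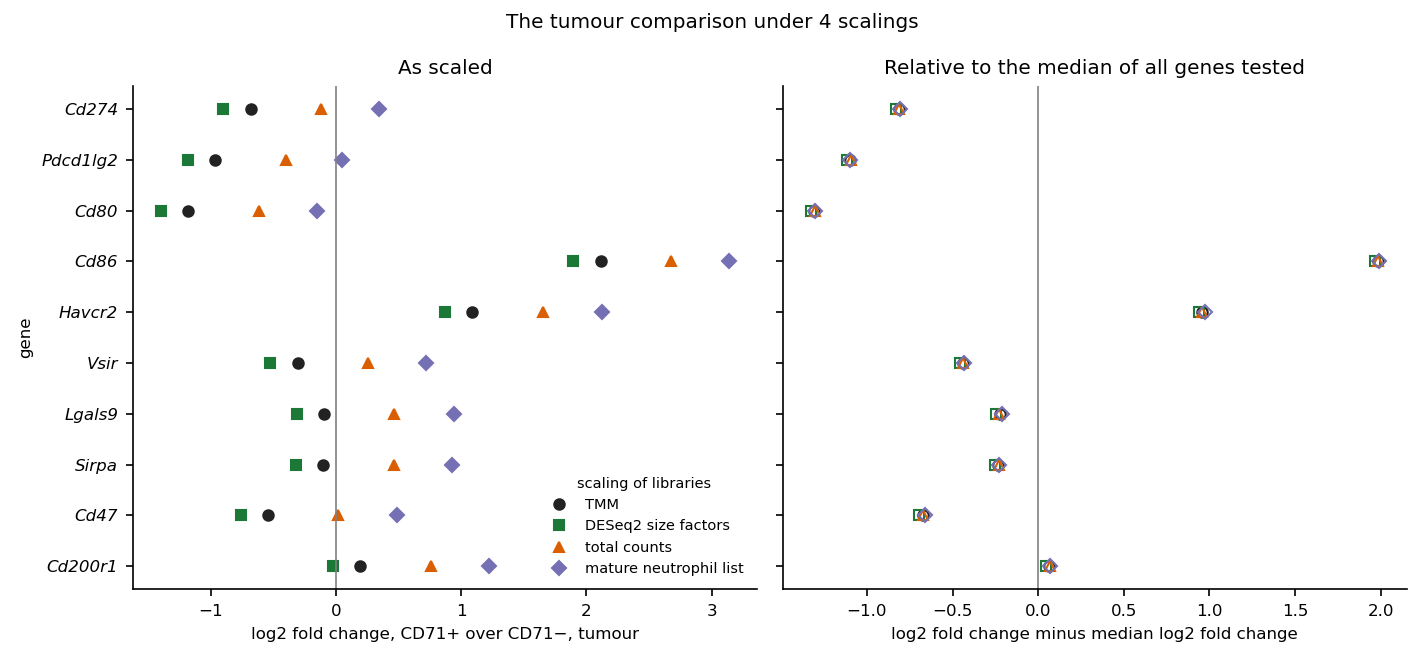
Log2 fold change of CD71+ over CD71- libraries in the tumour under 4 scalings of the libraries (left), and the same minus the median of all genes tested (right). Symbols stand for scalings. On the left Cd274 runs across 0, at 0.34 with mature neutrophil scaling, while on the right the symbols of each gene coincide to within 0.05, as a shift common to all genes must give.

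Markers of several other cell types moved with the sort fractions, but not of all. Of 9 tested early neutrophil markers, 1 was higher and 0 lower in tumour CD71+ than in tumour CD71- libraries. In culture 0 were higher and 1 lower. Of 7 tested eosinophil, basophil and mast cell markers, 1 was higher and 0 lower in the tumour, and 0 and 2 in culture. The sums of both lists overlapped between the tumour fractions. Over all genes tested, 26.2% were called higher and 17.3% lower in tumour CD71+ than in tumour CD71- libraries. In culture these shares were 7.88% and 8.36%. The 20 macrophage and monocyte markers summed to 4671 to 4999 CPM in tumour CD71+ libraries, against 1611 to 1657 CPM in tumour CD71- libraries, and 15 of the 19 tested were higher and 0 lower there. Microglia markers summed to 1195 to 1688 CPM against 175 to 238 CPM, with 9 of 10 higher, and dendritic cell markers to 48.2 to 59.1 CPM against 17.6 to 19.8 CPM, with 5 of 8 tested higher. Of the members, Cd86 and Havcr2 were higher in the same libraries on TMM scaling. Cd80, Pdcd1lg2, Cd274 and Cd47 were lower there, and the others were not called. The part of macrophages, microglia and dendritic cells in these levels was not tested. In bulk RNA a change in the number of cells of a type cannot be told apart from a change in RNA per cell. In culture, macrophage and monocyte markers summed to 1978 to 2492 CPM in CD71+ libraries, against 1099 to 1147 CPM in CD71- libraries, with 13 of 19 higher and 1 lower. Microglia markers in culture summed to 148 to 182 CPM in CD71+ libraries, against 81.7 to 85.1 CPM in CD71- libraries, with 5 of 10 higher and 0 lower, and Sall1 and Siglech of that list were at 0 in all 4. Dendritic cell markers there summed to 27.9 to 28.2 CPM against 8.94 to 9.25 CPM, with 3 of 8 tested higher. Of the members, Cd86 and Cd80 were higher in the culture CD71+ fraction, while Havcr2 had a log2 fold change of -0.27 and was not called. The part of these cells was not tested. Mature neutrophil markers summed to 21499 to 22707 CPM in tumour CD71+ libraries, against 43936 to 46223 CPM in tumour CD71- libraries, and 16 of the 20 were lower there, with a median log2 fold change of -0.99. In culture 10 of the 20 were lower in CD71+ cells. Between the sources, mature markers in culture summed to 4747 to 6024 CPM in CD71+ and 9972 to 11139 CPM in CD71- libraries. On TMM scaling, Cd274, Cd80, Cd86, Havcr2 and Lgals9 were lower in culture in both fractions, while Cd200r1 was higher there. The remaining members were called in 1 fraction only or in neither. Other lists also had calls between the sources, tumour over culture. There 30.3% of all genes were called higher and 27.6% lower in CD71+ cells, and 30.3% and 36.8% in CD71- cells. Microglia markers were higher for 10 of 10 in CD71+ cells and for 7 of 10 in CD71- cells, with 1 lower there. Macrophage and monocyte markers were higher for 12 and lower for 1 of 19 in CD71+ cells, and higher for 10 and lower for 5 in CD71- cells. Dendritic cell markers were higher for 4 of 8 in each fraction, with 1 lower in CD71+ and 2 lower in CD71- cells. Of 7 tested glioma and neural markers 6 were higher in each fraction, with sums of 133 to 205 CPM in tumour CD71+ against 78.7 to 92.7 CPM in culture CD71+ libraries, and of 141 to 151 CPM in tumour CD71- against 99.1 to 101 CPM in culture CD71- libraries. Endothelial and stromal markers were higher for 6 and lower for 1 of 7 in CD71+ cells, and higher for 4 in CD71- cells, where their sums overlapped (150 to 194 CPM in the tumour against 142 to 160 CPM in culture). Between the tumour fractions, 4 of 7 in each of these last 2 lists were higher in CD71+ libraries, and 1 endothelial and stromal marker was lower. The part of all these markers in the members' differences was not tested.

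**Figure D4:**
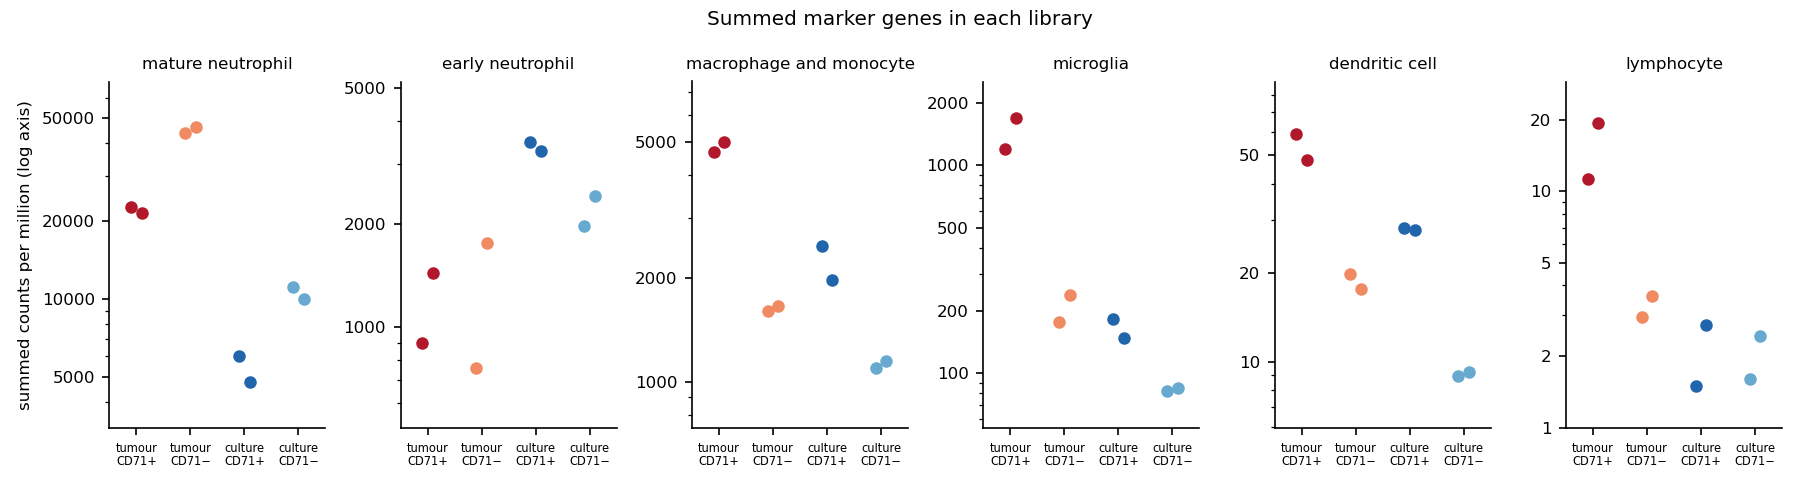
Summed CPM (vertical, log axes that differ between panels) of marker lists of 6 cell types in each of the 8 libraries. The tumour CD71+ libraries had the highest sums of macrophage, microglia, dendritic cell and lymphocyte markers, and the tumour CD71- libraries the highest sums of mature neutrophil markers.

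Levels were compared between genes as RPKM, the scaled CPM divided by the kilobases of exon, which corrects for transcript length. Tumour CD71+ cells had the order Cd274 (278 RPKM), Cd80 (158), Sirpa (126), Vsir (92.1), Cd47 (65.8), Lgals9 (61.5), Havcr2 (43.6), Cd86 (37.6), Pdcd1lg2 (8.32) and Cd200r1 (2.85), as means of 2 libraries, and no neighbours in that order overlapped. With the length of the longest transcript instead, Lgals9 stood above Cd47 and Cd86 above Havcr2. Tumour CD71- cells again had Cd274 (446 RPKM) and Cd80 (359) on top and Cd200r1 (2.49) at the bottom, with Cd86 (8.68) below Pdcd1lg2 (16.3), and there Pdcd1lg2 and Havcr2 (20.5) were neighbours with overlapping libraries. In culture the top 3 were Sirpa (129 RPKM), Cd47 (128) and Vsir (120) in CD71+ cells, and Vsir (142), Cd47 (114) and Sirpa (101) in CD71- cells. In CD71+ cells neighbours among these 3 overlapped, and in CD71- cells Cd47 and Sirpa did while Vsir stood above both. Next in both culture fractions came Cd274 (74.6 RPKM in CD71+ and 60.3 in CD71-) and then Cd200r1 (40.6 and 37.2), and Cd86 came last (2.89 and 0.873). Thus Cd200r1 was the least abundant of the 10 in the tumour, and Cd86 was the least abundant in culture.

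The genes whose profile over the 8 libraries was most like that of Cd274 were sought among 9768 tested genes with a mean of at least 5 CPM. The closest by Pearson's r of log2 CPM was Atp6v1h (r = 0.999), a subunit of the vacuolar proton pump, and then Cd80 (0.998) and Fnip2 (0.998), a partner of folliculin. The 8 points are 4 groups of 2 libraries, so such values mostly describe the order of group means. Atp6v1h had 120 and 107 CPM in tumour CD71+, 166 and 150 CPM in tumour CD71-, 49.8 and 45.2 CPM in culture CD71+ and 46.3 and 35.4 CPM in culture CD71- libraries. Fnip2 had 571 and 541, 991 and 932, 142 and 132, and 118 and 95.6 CPM in the same groups.

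Other genes of the same pathways were read from 7 lists, whose counts depend on the scaling. With TMM, 26.2% of all genes tested were called higher and 17.3% lower in tumour CD71+ than in tumour CD71- libraries. In culture the shares were 7.88% and 8.36%. Tumour over culture they were 30.3% and 27.6% in CD71+ cells, and 30.3% and 36.8% in CD71- cells. The counts of each list are to be read beside these shares, and no test of a list was made. The counts given are for TMM, and on the mature neutrophil scaling 0 genes of the 7 lists were called lower in tumour CD71+ than in tumour CD71- libraries, where that scaling called 57.9% of all genes higher and 0.188% lower. In the PD-1 and B7 list, 9 of 11 genes were tested, and 5 were higher and 1 lower in tumour CD71+ than in tumour CD71- libraries (median log2 fold change 2.53, against 0.13 over all genes). The 5 were Pdcd1, Ctla4, Icos, Cd276 and Rgmb. Ctla4, an inhibitory receptor of T cells, had 2.40 and 7.25 CPM in tumour CD71+ libraries, against 0.28 and 0.55 CPM in tumour CD71- libraries, and Icos, a co-stimulatory receptor of T cells, had 3.56 and 8.56 CPM against 0 and 0.83 CPM. Lymphocyte markers summed to 11.3 to 19.5 CPM against 2.93 to 3.60 CPM in the same libraries, and all 3 of those tested were higher; their part was not tested. Icosl, the ligand of ICOS, was lower in tumour CD71+ cells, with 96.9 and 109 CPM against 194 and 187 CPM in tumour CD71- cells (log2 fold change -0.89, SE 0.17, adjusted p = 0.000985). In culture 1 gene of this list was higher and 0 lower. Tumour over culture, 7 were higher and 1 lower in CD71+ cells, and 3 were higher and 1 lower in CD71- cells, with Cd28 the lower gene in both.

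Of 15 genes listed as regulators of PD-L1, 2 were higher and 7 lower in tumour CD71+ than in tumour CD71- libraries (median -0.44). Of all genes, 26.2% were higher and 17.3% lower there. Stat3, a transcription factor downstream of cytokine receptors, had 848 and 742 CPM against 1699 and 1458 CPM (log2 fold change -0.99, SE 0.17, adjusted p = 0.000477), and Rela, an NF-kappa B subunit, fell by 0.92 (SE 0.25, adjusted p = 0.0095). Myc rose by 1.99 (SE 0.44, adjusted p = 0.00362), at 15.6 and 16.6 CPM in tumour CD71+ against 6.0 and 2.08 CPM in tumour CD71- libraries. With total counts the list had 3 higher and 1 lower, against 42.5% and 3.07% of all genes, and on the mature neutrophil scaling 8 higher and 0 lower. In culture 0 were higher and 5 lower, among them Irf1, an interferon-induced transcription factor (-1.11, SE 0.17, adjusted p = 0.000653). Between sources 11 of the 15 were higher in the tumour in each fraction, with 2 lower in CD71+ and 3 lower in CD71- cells (medians 1.39 and 1.60, against -0.08 and -0.28 over all genes). Nfkb1, another NF-kappa B subunit, had 1279 and 1298 CPM in tumour CD71- against 121 and 135 CPM in culture CD71- libraries (log2 fold change 3.34, SE 0.18, adjusted p = 1.82e-09). Hif1a, the oxygen-regulated subunit of hypoxia-inducible factor 1, had 891 and 908 CPM against 139 and 117 CPM in the same groups (2.81, SE 0.18, adjusted p = 1.06e-08). On mature neutrophil scaling the tumour CD71+ over culture CD71+ comparison instead had 1 higher and 9 lower, against 10.3% and 75.2% of all genes.

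In the SIRP alpha and CD47 list, 2 of 11 genes were higher and 4 lower in tumour CD71+ libraries (median -0.03). Lrp1, the receptor through which calreticulin on a target promotes uptake, was higher (log2 fold change 1.75, SE 0.32, adjusted p = 0.00162), as was Calr, the calreticulin gene (0.59, SE 0.16, adjusted p = 0.00918). Sirpb1a and Sirpb1b were lower (-1.37 and -1.05), and as close copies of one another their reads may be shared between rows. Thbs1, a secreted ligand of CD47, had 23672 and 19077 CPM in tumour CD71+ and 37738 and 32869 CPM in tumour CD71- libraries. It had 10933 and 9195 CPM in culture CD71+ and 6739 and 4690 CPM in culture CD71- libraries, and its CD71 difference changed between the sources (interaction -1.54, SE 0.31, adjusted p = 0.0055). Culture CD71+ cells had 2 genes of this list higher and 2 lower (median -0.02), with Fyb, an adaptor that binds SKAP proteins, lower by 1.46 (SE 0.16, adjusted p = 7.58e-05). Tumour over culture, 6 genes were higher and 0 lower in CD71+ cells, where mature neutrophil scaling gave 0 higher and 11 lower, and 6 were higher and 1 lower in CD71- cells.

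In the CD200 list 7 genes were tested, and 1 was higher and 5 lower in tumour CD71+ than in culture CD71+ cells, and 0 were higher and 4 lower in CD71- cells (medians -1.84 and -1.87). Cd200r4, a paralogue of Cd200r1, had 4.23 and 2.64 CPM in tumour CD71+ libraries, against 34.0 and 30.1 CPM in culture CD71+ libraries (log2 fold change -3.22, SE 0.30, adjusted p = 5.93e-07). Dok2, an adaptor of the CD200 receptor pathway, had 5.17 and 3.05 CPM in tumour CD71- against 14.3 and 41.8 CPM in culture CD71- libraries (-2.76, SE 0.52, adjusted p = 0.000919). Reads of such paralogues may be split in counting. Cd200 itself, the ligand, stood at 1.54 and 4.33 CPM in tumour CD71+ libraries and at 0.42 CPM or below in each other library. Between the tumour fractions 3 genes of the list were higher and 0 lower, and in culture 1 and 0.

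Among 13 tested genes of other inhibitory receptors and ligands, 5 were higher and 6 lower in tumour CD71+ libraries (median -0.59). With DESeq2 size factors these were 5 and 8, against 21.6% and 24.1% of all genes on that scaling. Lag3, an inhibitory receptor, had 38.1 and 48.2 CPM in tumour CD71+ against 2.23 and 3.33 CPM in tumour CD71- libraries (log2 fold change 3.95, SE 0.36, adjusted p = 4.44e-06). Cd72, a receptor best known from B cells, had 40.6 and 39.2 CPM against 2.37 and 2.91 CPM (3.91, SE 0.30, adjusted p = 1.04e-06). Both stood at 0.587 CPM or below in every culture library. Pirb, the paired inhibitory receptor of myeloid cells, was lower (-1.0, SE 0.18, adjusted p = 0.000711), as was Siglece (-1.08, SE 0.16, adjusted p = 0.000222), a sialic acid receptor of neutrophils. Siglece was lower in culture CD71+ cells too (-1.01, SE 0.16, adjusted p = 0.00094), where the list had 3 higher and 4 lower (median 0.53). Lilrb4a, an inhibitory receptor of myeloid cells, reached 5059 and 5726 CPM in tumour CD71-, against 554 and 266 CPM in culture CD71- libraries (3.72, SE 0.29, adjusted p = 1.65e-07).

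Of the 6 tested genes of the TIM-3 and galectin list, 1 was higher and 1 lower between the tumour fractions (median -0.18). Lgals1, another galectin, was higher in CD71+ cells of the tumour (1.88, SE 0.41, adjusted p = 0.00386) and of culture (1.34, SE 0.41, adjusted p = 0.0481). Lgals8 was lower in tumour CD71+ cells (-0.52, SE 0.17, adjusted p = 0.025). Of 4 tested co-stimulatory genes of the TNF family, 3 were higher and 1 lower in tumour CD71+ cells (median 1.97) and 1 and 1 in culture. Cd40, a receptor of antigen-presenting cells, had 6.16 and 8.28 CPM in tumour CD71+ against 0.98 and 0.83 CPM in tumour CD71- libraries (2.99, SE 0.65, adjusted p = 0.00249), and Tnfsf14, the LIGHT gene, had 86.4 and 62.3 CPM against 141 and 135 CPM (-0.89, SE 0.19, adjusted p = 0.00193). The macrophage, microglia and dendritic cell sums given above moved with the rises of Lag3, Cd72, Cd40 and Lrp1, and their part was not tested.

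**Figure D5:**
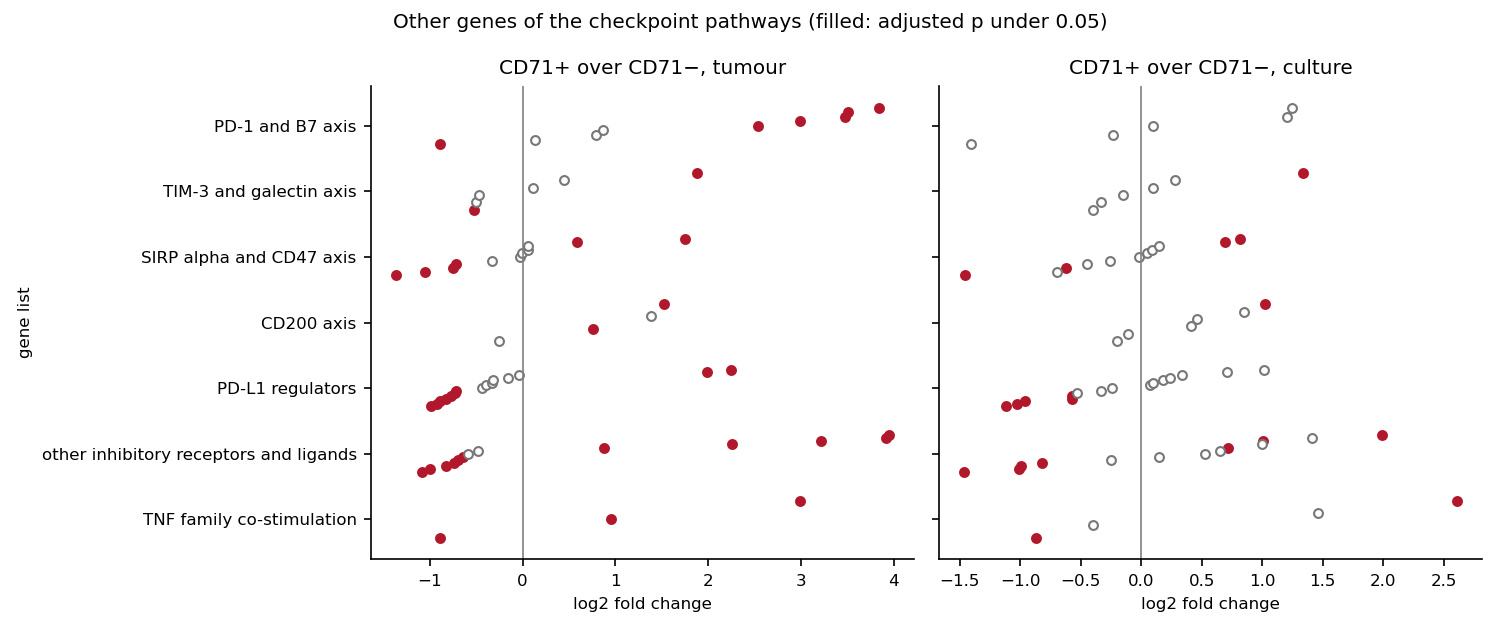
Log2 fold change of CD71+ over CD71- libraries (horizontal) for the other genes of 7 checkpoint pathway lists, in the tumour (left) and in culture (right). Filled points passed an adjusted p under 0.05, open points did not, and genes with almost no counts in a group are left out. In the tumour the PD-1 and B7 list lies mostly to the right of 0 and the PD-L1 regulators mostly to the left (on TMM scaling; on mature neutrophil scaling 8 regulators were higher and 0 lower).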

How the data were processed

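RNA-seq of sorted mouse neutrophils gave 1 deposited table of counts per gene for 8 libraries. Total RNA was extracted with a Zymo microprep kit and made into stranded libraries after ribosomal RNA removal, per the labels' protocols. FastQC, cutadapt, STAR, featureCounts and DESeq2 with build mm10 were used, per the submitters' processing notes. Which version each tool had, and whether reads were counted by strand, is not given in the sources used here. Counts were deposited as whole numbers without normalization by the authors. All 55450 gene IDs matched GENCODE M21, from which coordinates and exon lengths were taken.

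Libraries were grouped by the labels' source and CD71 sort. Tests used edgeR 4.0.16 under R 4.3.3 (filterByExpr over the 4 groups, TMM, robust quasi-likelihood test) in 1 model of 4 group means on all 8 libraries, with 4 residual degrees of freedom and a common biological coefficient of variation of 0.19. This gave 5 comparisons, each with Benjamini-Hochberg adjustment over 15975 genes and a call at an adjusted p under 0.05. The SE of a log2 fold change is its size over the root of F. Per-length values divide CPM by the exon union. The fit was tested on simulated data. Limits of 3 counts cover counting error only, and reads carry no molecular identifiers. Replicate pairs differed by more than counting noise (chi-square per degree of freedom 14.5 to 77.8). Where libraries share an animal or culture, p-values measure technical spread only.

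The members and gene lists were chosen with earlier results of these data known. Named genes are the 10 members, up to 2 called rises and 2 falls of largest change per list and comparison with a mean of at least 1 CPM, the 3 genes most like Cd274 (log2 of CPM plus 0.5), and Tfrc. Rgmb, Pdcd1, Cd276, Sall1 and Siglech were named after their values were seen. Alternatives were DESeq2 1.42.0 size factors and Wald test, total counts, scaling on the mature neutrophil list, no or a stricter filter (5 CPM in 2 libraries), a replicate block, the compared groups alone, each library left out, and the longest transcript as length.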

Additional observations from a re-analysis of the deposited data

Results flagged for a closer look

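The CD71 difference of 3 checkpoint genes differed between tumour and culture by the interaction test. Of all genes tested, 10.8% were called higher and 4.71% lower in the interaction. Havcr2 gave 1.36 on the log2 scale (tumour minus culture, adjusted p = 0.00622), with differences of 1.09 in the tumour and -0.27 in culture. Cd80 gave -1.82 (adjusted p = 0.00139), with -1.18 in the tumour and 0.65 in culture, and Cd274 gave -0.99 (adjusted p = 0.0237), with -0.68 in the tumour and 0.31 in culture. In each case both CD71+ libraries stood on the same side of both CD71- libraries within a source. With 2 libraries a group this adds no support, since the genes were picked on the same values. The Havcr2 and Cd274 interaction calls were lost under some of the alternatives, as given above. Macrophage and monocyte markers were higher in the CD71+ libraries of both sources, with 15 of 19 called in the tumour and 13 of 19 in culture. Of all genes, 26.2% and 7.88% were called higher there. The part of these markers in the differences was not tested.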

How the results depend on the processing

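Of the members' values over all alternatives, 682 kept direction and side of the threshold, 33 lost and 30 gained a call in the same direction, and 45 changed sign. The cause was not tested unless the alternative's construction shows it.

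With scaling on mature neutrophil genes, 7 members were higher and 0 lower in tumour CD71+ over CD71- cells, against 57.9% and 0.188% of all genes tested, with Cd274 at 0.34, Pdcd1lg2 0.051, Vsir 0.72, Lgals9 0.94, Sirpa 0.92 and Cd47 0.49. In culture 10 were higher, against 59.9% of all genes, and 9756 genes were called, with Pdcd1lg2 at 0.68, Havcr2 0.74, Vsir 0.73 and Lgals9 0.64. Tumour over culture it gave 3 higher and 5 lower in each fraction, against 10.3% and 75.2% of all genes in CD71+ and 9.62% and 71.9% in CD71- cells, with Cd274 at -0.15 in CD71+ and Havcr2 at -0.18, Lgals9 at -0.28 and Sirpa at -1.67 in CD71- cells.

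With total counts, 4 were higher and 1 lower between tumour fractions, against 42.5% and 3.07% of all genes, with Vsir at 0.25, Lgals9 0.46, Sirpa 0.46 and Cd47 0.017. In culture 4 were higher, against 16.4%, with Havcr2 at 0.041 and Vsir at 0.059. The interaction had 1 lower, against 2.47%, with Vsir at 0.20. Tumour over culture had 5 lower in each fraction, against 49.8% in CD71+ and 55.3% in CD71- cells, with Sirpa at -0.51 in CD71- cells.

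With DESeq2 size factors Cd200r1 was -0.024 between tumour fractions and -0.11 in the interaction, Sirpa 0.044 (CD71+) and Pdcd1lg2 0.17 (CD71-) tumour over culture, and 1 member was higher in culture, against 7.27%. The Wald test gave the same values for these (-0.024, -0.11, 0.044 and 0.17) and 4 lower in the interaction, against 10.1%. The stricter filter gave Sirpa 0.040 in CD71+ cells, and the compared groups alone gave Pdcd1lg2 0.12 in CD71- cells and 1 member higher in culture, against 7.46%.

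Leaving out 1 library, genes called ran from 4495 (without tumour CD71- replicate 2) to 7712 between tumour fractions, with 2 to 4 members lower. In culture they ran from 826 (without CD71+ replicate 1) to 2880, with 1 to 2 members higher, and 1050 without CD71+ replicate 2. In the interaction they ran from 966 (without tumour CD71- replicate 2) to 3609, with 0 to 1 higher and 1 to 3 lower. On all 8 libraries, the main fit called 17.3% of all genes lower between tumour fractions and 7.88% higher in culture. In the interaction it called 10.8% higher and 4.71% lower. A fit without 1 library leaves a single library in a group, so its counts are not read as a result about the members. Values that crossed 0 on leaving out 1 library were Cd47 in culture (-0.00078 to 0.38) and in CD71- cells between sources (-0.45 to 0.0073). Between sources they were also Pdcd1lg2 in CD71- cells (-0.32 to 0.34) and Sirpa in CD71+ cells (-0.16 to 0.030). In the interaction they were Cd200r1 (-0.12 to 0.16), Lgals9 (-0.064 to 0.48) and Vsir (-0.22 to 0.0096).

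The labels do not say whether libraries with the same replicate number belong together. Same-numbered libraries had correlations of -0.18 to 0.12 in their deviations from group means, the highest between the 2 tumour fractions. Such values cannot settle whether libraries were paired. With the number as a replicate block, 6335, 2135, 1997, 8717 and 10307 genes were called in the 5 comparisons, against 6951, 2595, 2470, 9245 and 10723 without it, and no member's call changed. Cd86 in culture CD71- cells, with 30 to 62 counts, and Cd200r1 in the tumour, with 57 to 109, rested on the fewest counts.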

Other observations

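Ratios of counts within a library do not depend on how libraries are scaled. The following pairs were chosen after their values were seen, and no test was made. Cd80 over Cd86 was 4.44 and 4.10 in tumour CD71+ libraries, against 42.5 and 41.0 in tumour CD71- libraries. In culture the ratio was 5.17 and 4.90 in CD71+ and 11.2 and 9.87 in CD71- libraries. The 2 B7 genes, which encode ligands of the same receptors, thus shifted against each other in the same direction in both sources, with the highest ratio in tumour CD71- cells.

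Cd274 over Pdcd1lg2, the ratio of the neighbouring PD-1 ligand genes, was 63.7 and 59.7 in tumour CD71+ and 45.7 and 58.3 in tumour CD71- libraries. It was 10.7 and 9.34 in culture CD71+ and 6.40 and 6.65 in culture CD71- libraries, so the sources did not overlap. Sirpa over Cd47, the receptor over its ligand, was 1.51 and 1.5 in tumour CD71+ and 1.25 and 0.983 in tumour CD71- libraries, against 0.785 and 0.794 in culture CD71+ and 0.637 and 0.773 in culture CD71- libraries. These are ratios of counts and not of transcript numbers, since the genes differ in length.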
